A study of Homo sapiens with 24 samples.

Results

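GDF15, the gene of growth differentiation factor 15, was followed through 24 RNA-seq libraries of 2 pancreas cell lines. It was taken by its symbol from the deposited tables, where it is 1 of 48162 genes, and it was chosen by its measured FPKM response to vesicles in these same libraries. Its own levels and fold changes are therefore given as a description, with no test. The lines were HPNE (hTERT-HPNE, pancreas cells immortalised with the telomerase gene) and HPDE (HPDE-H6c7, an immortalised line of pancreatic duct epithelium), both labelled as normal pancreas cells and grown in keratinocyte serum-free medium. Each line had 4 groups of 3 libraries, all taken after 24 h of treatment. The untreated group received fresh serum-free medium and the residual group received medium left over from the isolation of extracellular vesicles. The other two groups received 1e10 vesicles per well derived either from the pancreatic carcinoma line PANC-1 or from PPCL-68, the second pancreatic cancer source of the study. Each recipient is a single cell line, the labels do not tie the residual medium to 1 of the vesicle sources, and the replicates are described only as biological triplicates, so the spread measured is that between these libraries.

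GDF15 is a secreted ligand that belongs to the wider transforming growth factor beta superfamily. It is made as a precursor, cleaved by proprotein convertases in the secretory route and released as a dimer, and it acts through the receptor GFRAL with the co-receptor RET, whose known site is the hindbrain, where it lowers food intake. Cells raise GDF15 when proteins misfold, amino acids run short, mitochondria fail or DNA is damaged: ATF4 and CHOP (the product of DDIT3) of the integrated stress response are known to act on the gene, and p53 is another known activator. In pancreatic cancer GDF15 is known as a circulating marker linked to weight loss.

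In the deposited tables GDF15 (ENSG00000130513) is a protein-coding gene on the plus strand of chromosome 19, from 18485541 to 18499987 in build hg19, with a counted length of 1720 bases within a span of 14447 bases. No other gene of the tables overlapped that span, so no neighbour shares its reads although the library kit kept no strand. RefSeq gives the gene a shorter span of 3019 bases in GRCh38.p14. The 250 bases before its RefSeq start are shown with those of DDIT3 and TRIB3, whose levels moved most closely with GDF15 among the stress genes listed here, and of ASNS, a classical ATF4 target. Each runs 5′ to 3′ on the strand of its gene, and capitals mark matches, on either strand, to 4 motifs. The GC box was searched as GGGCGG and the CCAAT box by its 5 named letters. The TATA box was searched as TATAAA. The core of the C/EBP-ATF response element, through which ATF4 is known to act, was searched as TGATGNAA.
GDF15, chr19:18385908-18386157, plus strand: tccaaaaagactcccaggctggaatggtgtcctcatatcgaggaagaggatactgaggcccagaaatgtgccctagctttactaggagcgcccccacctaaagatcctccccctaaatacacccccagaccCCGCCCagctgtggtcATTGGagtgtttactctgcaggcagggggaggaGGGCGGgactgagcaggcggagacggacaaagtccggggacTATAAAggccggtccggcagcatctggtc
DDIT3, chr12:57520515-57520764, minus strand: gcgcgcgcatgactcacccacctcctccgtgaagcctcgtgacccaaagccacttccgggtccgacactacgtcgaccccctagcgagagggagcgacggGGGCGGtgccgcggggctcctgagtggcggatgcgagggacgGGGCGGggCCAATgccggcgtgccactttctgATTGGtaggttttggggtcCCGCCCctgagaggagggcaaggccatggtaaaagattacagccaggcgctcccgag
TRIB3, chr20:381045-381294, plus strand: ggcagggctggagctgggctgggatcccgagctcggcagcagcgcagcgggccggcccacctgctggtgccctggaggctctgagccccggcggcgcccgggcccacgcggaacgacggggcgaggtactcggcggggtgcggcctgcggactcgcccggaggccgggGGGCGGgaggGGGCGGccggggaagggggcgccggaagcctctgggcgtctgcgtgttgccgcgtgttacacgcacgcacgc
ASNS, chr7:97872409-97872658, minus strand: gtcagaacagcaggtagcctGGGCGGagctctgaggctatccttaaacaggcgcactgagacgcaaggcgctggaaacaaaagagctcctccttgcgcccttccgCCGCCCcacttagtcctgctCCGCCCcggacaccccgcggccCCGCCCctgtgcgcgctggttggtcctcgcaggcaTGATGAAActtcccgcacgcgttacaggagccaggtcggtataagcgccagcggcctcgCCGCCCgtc
The GDF15 stretch held 2 GC boxes, 119 to 114 and 70 to 65 bases before the start, a CCAAT box on the opposite strand 103 to 99 bases before it, and a TATA box 29 to 24 bases before it. Of 27305 human promoters of the same length, 42.3% held a GC box, 33.0% a CCAAT box and 11.1% a TATA box. The C/EBP-ATF core was found in 3.19% of them, and among the 4 shown it was found in ASNS, 68 to 61 bases before the start. These letters were not in the window of GDF15, DDIT3 or TRIB3, and neither were those of the p53 half-site, which 5.53% of all promoters held. A match is a description of the letters and not a measured site.

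The libraries held 29209142 to 46490312 reads assigned to genes. In HPNE 1 library of each group lay apart from the other two, at 2.05 to 3.41 times the distance of the closest pair (untreated replicate 3, residual replicate 3, PANC-1 vesicle replicate 1 and PPCL-68 vesicle replicate 1), while in HPDE this ratio was 1.07 to 1.23. GDF15 differences, list counts and the main gene differences in HPNE are therefore also given without those libraries. The summed level of 5 duct markers (EPCAM, KRT19, KRT7, CDH1 and SOX9) was 1154 to 2570 FPKM (a read count divided by gene length and by the size of the library) in HPDE and 1.84 to 5.49 FPKM in HPNE, so HPNE lacked a duct epithelial profile, and the summed level of VIM, NES and TERT was 287 to 1021 FPKM in HPNE and 23.4 to 34.3 FPKM in HPDE. Markers of immune, endothelial, islet and acinar cells summed to at most 2.23 FPKM (7 of 8 matched), with INS and PRSS1 at 0 reads in all libraries.

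In HPNE, GDF15 was an abundant transcript that was lowest in residual medium and highest with vesicles. Untreated HPNE libraries had 37.3, 35.0 and 20.9 FPKM, a mean of 31.1 ± 8.87 (SD, n = 3). Those in residual medium had 6.38, 8.36 and 13.3 FPKM, a mean of 9.33 ± 3.55 (SD, n = 3). All 3 lay below every untreated library, and the highest of them was replicate 3, the library that lay apart. With PANC-1 vesicles the values were 58.3, 55.0 and 48.5 FPKM (53.9 ± 5.0, SD, n = 3). With PPCL-68 vesicles they were 64.5, 40.9 and 38.0 FPKM (47.8 ± 14.5, SD, n = 3), the highest coming from replicate 1, which lay apart. The vesicle groups overlapped each other and neither overlapped residual medium or the untreated cells, but the lowest PPCL-68 library was only 1.02 times the highest untreated one.

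In HPDE, GDF15 was low in both controls and about 10-fold higher with either vesicle source. Untreated libraries had 1.39, 1.63 and 1.11 FPKM (1.38 ± 0.256, SD, n = 3), and those in residual medium had 1.64, 1.16 and 1.20 FPKM (1.33 ± 0.270, SD, n = 3). These control groups overlapped fully. PANC-1 vesicles gave 12.6, 13.4 and 14.7 FPKM (13.6 ± 1.08, SD, n = 3), and PPCL-68 vesicles gave 13.6, 14.8 and 13.8 FPKM (14.1 ± 0.645, SD, n = 3). All 6 vesicle libraries lay far above all 6 controls, and the vesicle groups again overlapped. In bulk RNA, more cells that make a transcript and more transcript per cell cannot be told apart.

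**Figure D1:**
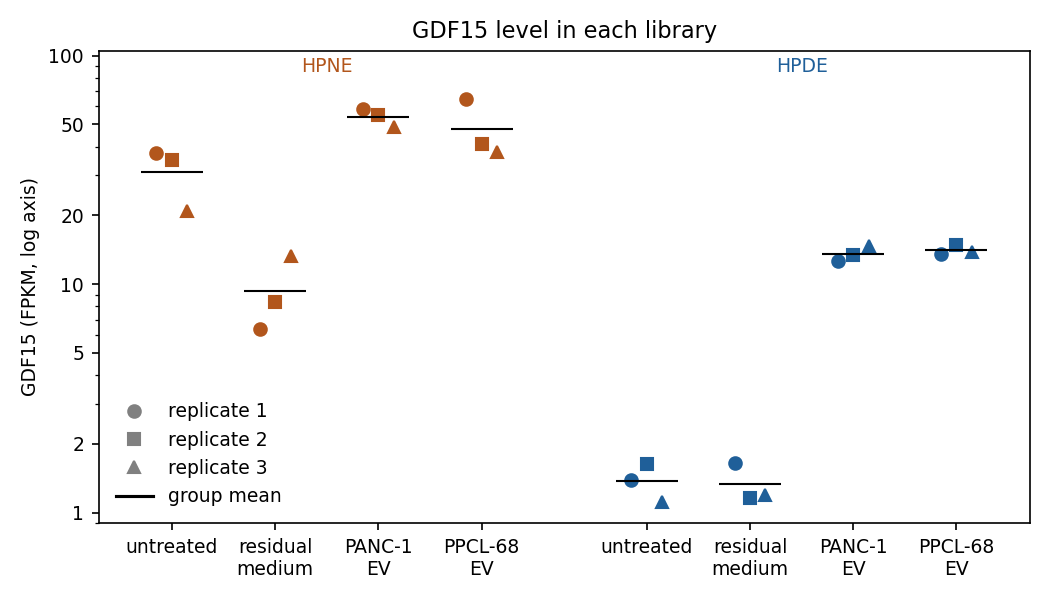
GDF15 in each library, in FPKM on a log axis, by group and cell line; symbols mark the replicate number and the black bar is the mean of 3 libraries. In HPNE the residual medium libraries (6.38 to 13.3 FPKM) sit under the untreated ones (20.9 to 37.3 FPKM), and in HPDE the controls (1.11 to 1.64 FPKM) sit under the vesicle libraries (12.6 to 14.8 FPKM).

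The read numbers behind these values were ample outside the HPDE controls, where GDF15 had 69 to 118 reads per library. The lowest of those, HPDE untreated replicate 3 at 1.11 FPKM, has a 95% Poisson interval of 0.880 to 1.39 FPKM, which covers counting error only. HPDE vesicle libraries had 683 to 945 GDF15 reads, HPNE libraries in residual medium 471 to 694, untreated HPNE 1376 to 1988 and HPNE vesicle libraries 2100 to 4399. Ranked by mean, the 8 groups ran from HPDE in residual medium and untreated HPDE, which overlapped, to HPNE in residual medium, then HPDE with PANC-1 and with PPCL-68 vesicles, then untreated HPNE, and at the top HPNE with PPCL-68 and with PANC-1 vesicles. HPNE in residual medium overlapped HPDE with PANC-1 vesicles, which overlapped HPDE with PPCL-68 vesicles, and the top pair overlapped too. The other steps in that order had no overlap. Among the genes with a read in a library, GDF15 stood above 46.4 to 51.1% of them in HPDE controls and above 77.7 to 80.3% in HPDE vesicle libraries. In HPNE it stood above 67.0 to 81.1% in residual medium, 88.1 to 93.3% without treatment and 93.6 to 96.0% with vesicles.

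Against residual medium, mean GDF15 in HPNE was 5.78-fold higher with PANC-1 vesicles and 5.12-fold higher with PPCL-68 vesicles. As differences of mean log2(FPKM + 1), these were 2.46 and 2.25, the 7th and the 13th highest of 11503 genes. Against untreated HPNE the ratios were smaller, 1.73-fold and 1.54-fold (log2 differences of 0.81 and 0.61), and residual medium itself held GDF15 at 0.300 of the untreated mean (a log2 difference of -1.65). With only the 2 closest libraries of each HPNE group the differences from residual medium were 2.66 and 2.28, that from residual medium to untreated -2.16, and those from untreated 0.50 and 0.12, so the excess of PPCL-68 vesicles over untreated cells rested mostly on libraries that lay apart. In HPDE the choice of control made little difference: PANC-1 vesicles gave 10.2-fold over residual medium and 9.85-fold over untreated cells, and PPCL-68 vesicles 10.6-fold and 10.2-fold. The log2 differences from residual medium were 2.65 and 2.70, the 3rd and the 6th highest of 12223 genes, and residual medium differed from untreated by -0.03. The added 1 FPKM compresses differences from so low a level, and with 0.1 FPKM in its place the same 2 differences were 3.27 and 3.32. The 2 vesicle sources differed by 0.21 in HPNE and -0.05 in HPDE (PANC-1 minus PPCL-68, log2), with overlapping libraries in each line.

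Other measures moved with these groups. The share of mitochondrial reads in HPDE was 0.872 to 1.25% in controls, 0.362 to 0.635% with PANC-1 vesicles and 0.569 to 0.775% with PPCL-68 vesicles. In HPNE it was 1.13 to 2.63% untreated, 0.746 to 0.982% in residual medium, 0.810 to 1.57% with PANC-1 and 0.891 to 1.09% with PPCL-68 vesicles. The summed duct markers in HPDE were 1853 to 2067 FPKM untreated, 2226 to 2570 in residual medium, 1210 to 1411 with PANC-1 vesicles and 1154 to 1182 with PPCL-68 vesicles. In HPNE the summed VIM, NES and TERT levels were 498 to 1021 FPKM in residual medium and 287 to 467 FPKM with vesicles. Their part in the GDF15 values was not tested.

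The genes around GDF15 in its pathway were read with limma, fitted on log2(FPKM + 1) in the 12 libraries of each line, with Benjamini-Hochberg adjustment over all genes tested and a threshold of 0.05. A gene needed a mean of at least 1 FPKM in the line to be tested. The receptor side was nearly silent. GFRAL had 0 reads in all 24 libraries, which at the floor of 3 reads does not show that it is absent. RET, the co-receptor kinase, reached at most 0.131 FPKM in HPNE. In HPDE it was listed at 0.365 to 0.481 FPKM untreated, 0.322 to 0.477 in residual medium, 0.710 to 0.925 with PANC-1 vesicles and 1.15 to 1.54 with PPCL-68 vesicles. Neither group of vesicle libraries overlapped the controls, but the mean of RET over the 12 libraries stayed under the level needed for a test. GFRA1, a relative of GFRAL, reached 0.214 FPKM in HPNE and was at 0 in HPDE, and none of the 6 receptor genes was tested.

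Of 4 convertases listed, FURIN and PCSK7 were at a tested level in both lines. FURIN, which cleaves many precursors of this superfamily, lay between 26.3 and 52.1 FPKM in HPNE and between 32.1 and 41.3 FPKM in HPDE. It was lower with PPCL-68 vesicles than in residual medium in both lines (log2 differences of -0.42 ± 0.09 SE in HPNE and -0.26 ± 0.04 SE in HPDE, limma adjusted p = 0.0037 and 0.00015). PCSK6, at under 0.1 FPKM in HPNE and untested there, rose in HPDE by 0.69 ± 0.08 (SE) with PANC-1 and 0.98 ± 0.08 (SE) with PPCL-68 vesicles over residual medium (limma adjusted p = 5.6e-06 and 9.7e-08). PCSK7 passed the test once, at -0.62 in HPNE with PPCL-68 vesicles, and PCSK5 was below the level tested in both lines.

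Transcription factors described as regulators of GDF15 mostly rose with vesicles. DDIT3, which encodes CHOP, had 3.90, 4.43 and 10.3 FPKM in HPNE in residual medium against 30.3, 28.5 and 27.7 with PANC-1 vesicles and 42.0, 25.9 and 20.2 with PPCL-68 vesicles. In HPDE it had 6.03 to 8.99 FPKM in residual medium, 50.5 to 53.2 with PANC-1 vesicles and 37.9 to 38.6 with PPCL-68 vesicles. Vesicle and control libraries did not overlap in either line. The log2 differences from residual medium were 2.15 ± 0.34 and 2.12 ± 0.34 (SE) in HPNE, and in HPDE 2.67 ± 0.09 and 2.24 ± 0.09 (SE) (limma adjusted p = 0.0019, 0.00091, 1.8e-11 and 6.1e-11). Like GDF15, DDIT3 was also lower in residual medium than in untreated HPNE (-0.93 ± 0.34 SE, limma adjusted p = 0.045), with residual replicate 3 at 10.3 FPKM inside the untreated range of 7.62 to 14.8 FPKM, and it differed by -0.02 between the HPDE controls. That HPNE call was lost on leaving out any of 8 single libraries, with the highest limma adjusted p of 0.16 without residual replicate 1.

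ATF4, the central factor of the integrated stress response, which is controlled largely through translation, had 125, 138 and 231 FPKM in HPNE in residual medium against 197 to 262 untreated, 228 to 266 with PANC-1 vesicles and 259 to 302 with PPCL-68 vesicles. Residual replicate 3 again lay with the other groups. ATF4 transcript rose over residual medium by 0.63 and 0.79 in HPNE, and in HPDE by 0.48 and 0.56 (log2, PANC-1 then PPCL-68; limma adjusted p = 0.044, 0.011, 1.9e-07 and 2.1e-08). The HPNE call with PANC-1 vesicles was lost without any of 9 single libraries (limma adjusted p up to 0.17, without residual replicate 1). ATF3, a stress factor downstream of ATF4, rose by 1.64 and 2.31 in HPNE, and in HPDE by 1.20 and 1.18. KLF4 had 1.76 to 5.84 FPKM in HPNE in residual medium, under its range of 11.3 to 25.2 FPKM in the 9 other HPNE libraries. It rose over residual medium by 2.37 and 2.12 there, and residual medium was below untreated by 2.11 on the log2 scale (limma adjusted p = 0.0007, 0.00048 and 0.00059). With the 2 closest libraries of each group these KLF4 differences were 2.59, 2.50 and -2.74. CEBPB and CEBPG, partners of ATF4, and XBP1, a factor of the unfolded protein response, also rose with both vesicle sources in both lines, CEBPB in HPNE with PANC-1 vesicles at a limma adjusted p of 0.12 without residual replicate 1.

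Over the list of regulators against residual medium, 10 of 16 tested in HPNE passed with PANC-1 vesicles, all higher, and 11 of 16 with PPCL-68 vesicles, 10 of them higher. The share of all genes called there was 24.2% (13.9% higher) and 39.9% (20.3% higher). In HPDE 13 of 17 passed with PANC-1 vesicles, all higher, and 14 of 17 with PPCL-68 vesicles, 13 of them higher, where 63.3% (28.2% higher) and 67.7% (31.3% higher) of all genes were called. Residual medium against untreated called 7 of 16 in HPNE (3 higher, 4 lower; 43.9% of all genes, 25.2% lower) and 6 of 17 in HPDE (5 higher, 1 lower; 20% of all genes, 10.1% lower). With libraries divided by size factors the HPNE split of residual medium against untreated was 4 higher and 1 lower. EGR1 passed in HPDE alone, at -0.46 with PPCL-68 vesicles, and TP63, tested in HPDE only, rose with PANC-1 vesicles by 0.99 and had -0.14 with PPCL-68 vesicles.

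The sensors upstream of ATF4 did not move as a group. Of 9 kinases, phosphatase subunits and relay genes around eIF2alpha, 5 passed in HPNE with PANC-1 vesicles (3 higher, 2 lower) and 4 with PPCL-68 vesicles (2 higher, 2 lower), and 7 passed in HPDE with each source (5 higher and 2 lower, then 3 higher and 4 lower). Of all genes 24.2% and 39.9% were called in HPNE, with 63.3% and 67.7% in HPDE, so the HPDE counts were near that share. With size factors the first of these splits was 3 higher and 4 lower, and that of PANC-1 vesicles in HPDE 5 higher and 1 lower. PPP1R15A (GADD34), which restores translation and is itself a target of the response, rose in all 4 comparisons, by 1.79 and 2.46 in HPNE, with HPDE rises of 1.99 and 2.33. EIF2AK3 (PERK), the kinase of the endoplasmic reticulum, rose in HPDE by 0.18 and 0.60 and had -0.39 and -0.25 in HPNE without passing the test.

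Target genes of ATF4 and CHOP rose with GDF15 in both lines, and none fell with vesicles. Against residual medium 19 of 24 passed in HPNE with PANC-1 and 21 of 24 with PPCL-68 vesicles, all higher, with list medians of 0.93 and 1.10 (log2) beside 0.02 and 0.00 for all genes tested. In HPDE 21 and 22 of 22 passed, all higher, with medians of 0.98 and 1.07 beside -0.04 and -0.03. Of all genes, 13.9% and 20.3% were higher in those HPNE comparisons (24.2% and 39.9% called in all), and 28.2% and 31.3% in the HPDE ones (63.3% and 67.7% called in all). Against untreated cells, 10 of 24 in HPNE with PANC-1 vesicles and 17 of 24 with PPCL-68 vesicles were higher, as were 22 of 22 in HPDE with either source, and none was lower. Of all genes, 21.1% (9.61% higher, 11.5% lower) and 42.5% (18.7% higher, 23.8% lower) were called in those HPNE comparisons, and 60.6% (26.3% higher) and 66.3% (30.1% higher) in the HPDE ones. The HPNE counts moved with single libraries: the 19 became 12 without residual replicate 1 and 12 without PANC-1 vesicle replicate 3, and the 10 became 16 without residual replicate 3. With the 2 closest libraries of each group all 24 were higher with either source against residual medium, with medians of 1.40 and 1.49, although choosing close libraries narrows the spread, and 6773 and 7531 of 11463 genes were then called. In that reduced set 20 were higher and 1 lower with PANC-1 vesicles against untreated HPNE, a count with no share of all genes beside it here.

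Named members of that list reached the size of the GDF15 difference in some cases. TRIB3, a pseudokinase that feeds back on ATF4, had 13.2, 15.3 and 59.4 FPKM in HPNE in residual medium against 143 to 198 FPKM in the 6 vesicle libraries. In HPDE it had 113 to 115 FPKM in residual medium and 403 to 446 FPKM with vesicles. Residual replicate 3 was closer to the untreated cells (37.7 to 73.2 FPKM) than to its own group, and no vesicle library overlapped a control in either line. SESN2, an inhibitor of mTORC1 signalling, rose by 2.15 and 2.09 in HPNE, with HPDE rises of 2.06 and 2.10 (limma adjusted p = 0.00031, 0.00011, 1.8e-12 and 7.3e-13). SLC7A11, the cystine transporter, rose by 2.33 and 2.69 in HPNE, with HPDE rises of 2.18 and 2.37. The glycine transporter SLC6A9 rose by 1.88 and 2.34 in HPNE, and ASNS, asparagine synthetase, by 1.52 and 1.99 there and 1.96 and 2.07 in HPDE. With the 2 closest libraries of each HPNE group the rises were 2.59 and 2.55 for SESN2, 2.99 and 3.20 for SLC7A11, 2.59 and 2.93 for SLC6A9, and 2.18 and 2.57 for ASNS. At the low end, VLDLR had 0.08 and -0.07 with PANC-1 vesicles in HPNE and HPDE and did not pass.

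The response of these targets to residual medium was uneven. In HPNE 9 of 24 passed against untreated, 7 of them lower, and in HPDE 8 of 22, 6 of them lower, with medians of -0.34 and -0.07. Of all genes 43.9% were called in HPNE (25.2% lower) and 20% in HPDE (10.1% lower), so the HPNE count was below that share. SLC6A9 (-1.60), SLC7A11 (-1.52), NUPR1 (-1.49) and TRIB3 (-1.27) passed with the most negative HPNE differences, beside -1.65 for GDF15, while VLDLR was higher by 1.16. The TRIB3 call (limma adjusted p = 0.039) was lost without any of 8 single libraries, up to 0.16 without residual replicate 1, and its difference was -2.23 with the 2 closest libraries of each group. The HPNE count ranged from 4 (without untreated replicate 1, untreated replicate 2 or residual replicate 2; 5 without residual replicate 1) to 16 (without residual replicate 3), and with size factors the split was 3 higher and 3 lower. An interaction contrast of the lines called 6 of 22 for residual medium against untreated, 3 in each direction, where 38.1% of 10483 genes were called. For vesicles against residual medium it called 3 of 22 with PANC-1 and 4 of 22 with PPCL-68 vesicles (18.2% and 23% of all genes).

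Target genes of p53 were called in both directions with vesicles, mostly higher in HPNE and more mixed in HPDE. Against residual medium 8 of 22 passed in HPNE with PANC-1 vesicles (7 higher, 1 lower) and 10 of 22 with PPCL-68 vesicles (8 higher, 2 lower), and in HPDE 12 (8 higher, 4 lower) and 17 (10 higher, 7 lower). Of all genes 24.2% and 39.9% were called in HPNE (13.9% and 20.3% higher), with 63.3% and 67.7% in HPDE (28.2% and 31.3% higher). The HPDE count with PANC-1 vesicles was below the share called and the rest above it. The list medians were 0.21 and 0.26 in HPNE (0.22 and 0.30 with the 2 closest libraries), and in HPDE 0.10 and 0.09. For all genes tested the medians were 0.02 and 0.00 in HPNE, and in HPDE -0.04 and -0.03. With size factors the HPNE splits were 5 higher and 2 lower, and 8 higher and 4 lower. Without residual replicate 3 the first HPNE count rose from 8 to 13, it was 5 without residual replicate 1 or residual replicate 2, and the second was 6 without residual replicate 1.

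The p53 targets that rose in all 4 of these comparisons included GADD45A, which is also a stress gene downstream of ATF4, and TNFRSF10B, a death receptor that CHOP is known to raise as well. GADD45A rose by 2.00 and 2.03 in HPNE, and in HPDE by 1.28 and 0.83 (limma adjusted p = 0.00035, 0.0001, 2.1e-09 and 1.1e-07). Its HPNE libraries had 40.8 to 46.0 FPKM in residual medium and 113 to 241 FPKM with vesicles. CDKN1A (p21), the classical p53 target, had 205 to 247 FPKM in HPNE in residual medium and 220 to 286 FPKM with vesicles, and in HPDE 72.7 to 77.7 against 116 to 139 FPKM. It rose by 0.64 and 0.81 in HPDE and by 0.33 in HPNE with PPCL-68 vesicles, and had 0.04 there with PANC-1 vesicles. The HPNE rise did not pass without residual replicate 1 (limma adjusted p = 0.11). POLH, a translesion polymerase, fell in all 4 comparisons, on the log2 scale by 0.73 and 0.82 in HPNE, and in HPDE by 0.47 and 0.44. The HPNE fall with PANC-1 vesicles did not pass without residual replicate 1, residual replicate 2 or PANC-1 vesicle replicate 3 (limma adjusted p up to 0.077).

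Against untreated HPNE the p53 list was mostly lower in residual medium, as GDF15 was. There 15 of 22 passed, 1 higher and 14 lower, with a median of -0.38; TP53INP1 (-1.97), BBC3 (-1.72) and BTG2 (-1.20) had the most negative differences. With vesicles 9 of 22 were lower and 3 were higher against untreated HPNE for each source, where GDF15 lay above untreated. Of all genes 43.9% (25.2% lower) were called for residual medium, 21.1% (11.5% lower) for PANC-1 and 42.5% (23.8% lower) for PPCL-68 vesicles. In HPDE 9 of 22 passed for residual medium (6 higher, 3 lower), beside 20% of all genes. The interaction contrast called 13 of 22 p53 targets for residual medium against untreated, all 13 higher in HPDE relative to HPNE, where 38.1% of all genes were called.

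**Figure D2:**
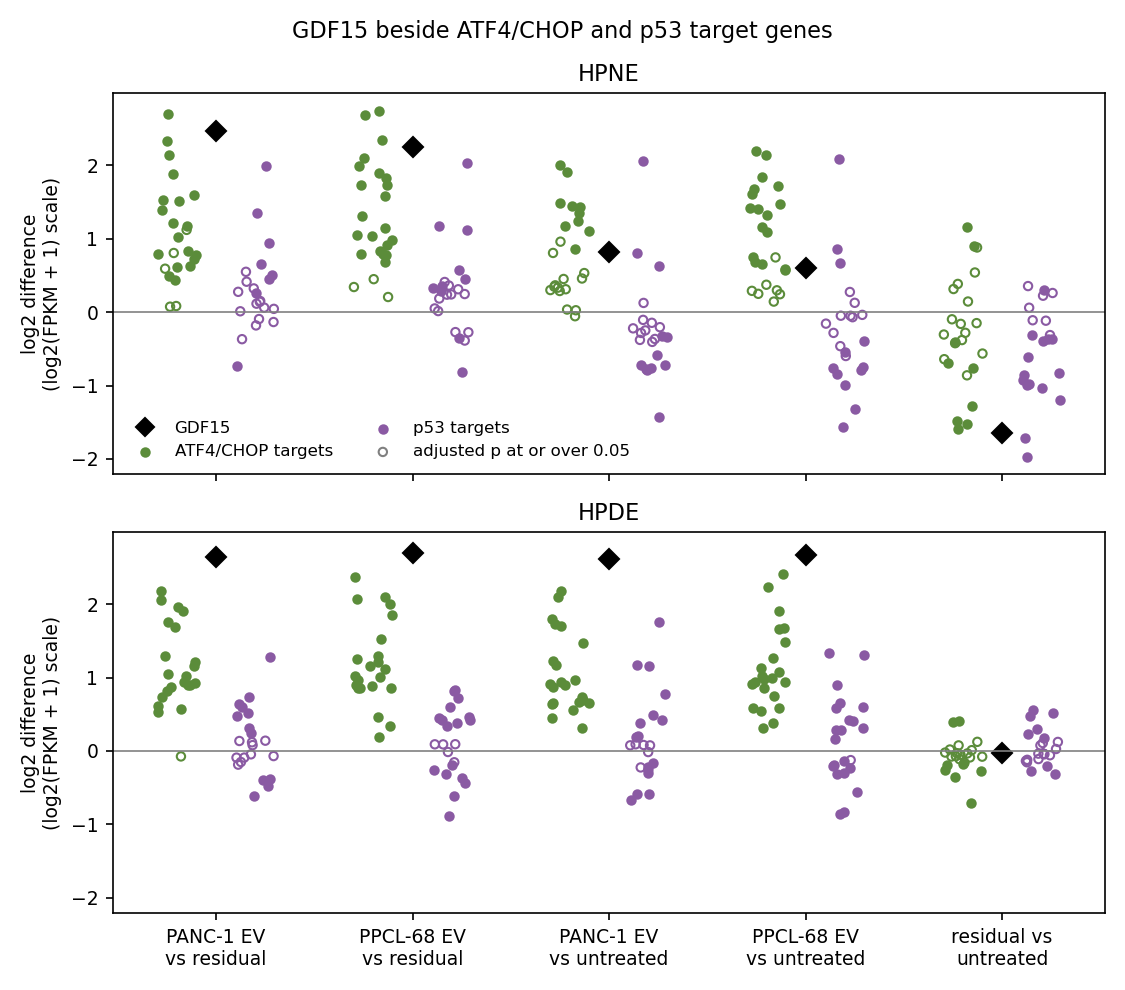
Log2 differences on the log2(FPKM + 1) scale for GDF15 (black diamonds), ATF4 and CHOP targets (green) and p53 targets (purple) in 5 comparisons of each line; filled circles have a limma adjusted p under 0.05. Nearly all green circles lie above 0 in the vesicle comparisons while the purple ones lie on both sides, and GDF15 lies at 2.46 and 2.25 (HPNE) and at 2.65 and 2.70 (HPDE) against residual medium.

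Across the libraries of each line, the 10 genes whose pattern was most like that of GDF15 were LURAP1L, EPC2, ANKIB1, NRBF2, DDIT3, SEPSECS, GAS5, TRIB3, CCDC174 and RB1CC1. They were taken as the genes with the highest value of the smaller of 2 Pearson correlations with GDF15, each over 12 libraries on log2(FPKM + 1), among 10482 other genes tested in both lines. LURAP1L had r = 0.980 in HPNE and 0.992 in HPDE, DDIT3 0.957 and 0.980, and TRIB3 0.946 and 0.995. These are descriptions of libraries that share their 4 groups. LURAP1L had 11.5, 12.2 and 25.9 FPKM in HPNE in residual medium and 49.6 to 73.8 FPKM with vesicles, and in HPDE 1.51 to 2.50 FPKM in the controls and 24.6 to 30.3 FPKM with vesicles. GAS5, a noncoding transcript that accumulates when growth is restrained, had 40.7 to 64.8 FPKM in HPNE in residual medium and 107 to 167 FPKM with vesicles. Others in the set moved much less: ANKIB1 had 10.6 to 11.5 FPKM in HPNE in residual medium and 12.8 to 14.4 FPKM with vesicles, while RB1CC1 and NRBF2 encode parts of the machinery that starts autophagy. The 5 most opposite genes were LMNB1, which encodes lamin B1 of the nuclear envelope, KPNA2, an importin, GLE1, GEMIN4 and LASP1. LMNB1 (r = -0.962 and -0.991) fell relative to residual medium on the log2 scale, by 2.03 and 1.98 in HPNE, and in HPDE by 1.03 and 1.21.

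The likeness came from different sources in the 2 lines. In HPNE the 10 genes also followed GDF15 within the 6 controls (r of 0.887 to 0.996) and in the deviations from group means (0.701 to 0.977), less closely within the 6 vesicle libraries (0.188 to 0.904, median 0.737). These genes were chosen for high r in these same libraries. The controls hold the gap between untreated cells and residual medium, and the deviations hold the libraries that lay apart. Such r values were not computed for all genes, so no background stands beside them. In HPDE the overall r came from the gap between the 6 control and the 6 vesicle libraries: within the controls r was -0.778 to 0.269 (positive for 2 of 10), within the vesicle libraries -0.837 to 0.427 (positive for 3 of 10), and in deviations from group means -0.748 to 0.400 (positive for 2 of 10). Targets of ATF4 and CHOP had a median r of 0.80 in HPNE and 0.97 in HPDE, p53 targets 0.36 in each, and all genes 0.01 and -0.15. With Spearman correlations the 10 genes were others (0 shared), and 6 were shared without HPNE residual replicate 1. Of 8 of the 10 genes with a RefSeq promoter, 0 held the C/EBP-ATF core in the 250 bases before the start, and of 17 matched ATF4 and CHOP targets 3 did (AARS1, ASNS and CHAC1).

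**Figure D3:**
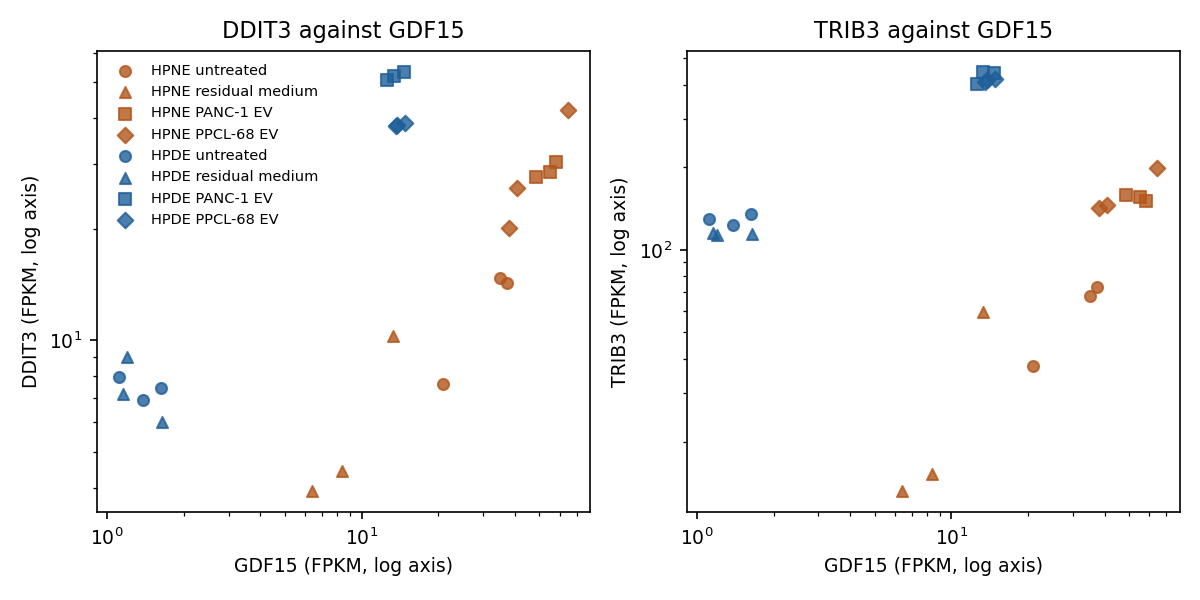
DDIT3 and TRIB3 against GDF15 in the 24 libraries, in FPKM on log axes, by line (colour) and treatment (symbol). The HPNE libraries spread along a line from residual medium (GDF15 at 6.38 FPKM) to vesicles (64.5 FPKM), while the HPDE libraries form separate clouds of controls and vesicles.

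Among the ligands of its superfamily, GDF15 ranked second in HPNE with vesicles. By mean FPKM over 33 ligands it was 3rd in untreated HPNE, 4th in residual medium and 2nd with either vesicle source, and in HPDE it went from 7th untreated and 6th in residual medium to 3rd with either source. Its share of the summed ligand level was 17.4%, 2.89%, 14.8% and 12.2% in HPNE (untreated, residual, PANC-1 and PPCL-68 vesicles) and 1.70%, 1.41%, 9.08% and 10.4% in HPDE. With the 2 closest libraries of each group the HPNE shares were 20.5%, 2.55%, 12.9% and 9.39%, and GDF15 was 5th in residual medium. INHBA, the activin A subunit, was the most abundant ligand in all vesicle groups. In HPNE it had 40.9 to 90.8 FPKM untreated and 215 to 301 FPKM in residual medium, and vesicles differed from residual medium by -0.06 and 0.23 (limma adjusted p = 0.90 and 0.57), so INHBA was at its vesicle level in the group where GDF15 was lowest. In HPDE it rose with vesicles by 1.40 and 1.19 over residual medium.

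TGFB1 was lower in residual medium than in untreated HPNE, by 1.30 on the log2 scale, as GDF15 was, and rose with PANC-1 vesicles by 0.73 (limma adjusted p = 0.018, but 0.064 without residual replicate 2). In HPDE its differences from residual medium were -0.16 and -0.14 and did not pass. INHBE, an inhibin subunit that ATF4 is known to raise, had 0.192, 0.0995 and 2.86 FPKM in HPNE in residual medium and 1.82 to 4.83 FPKM with vesicles. Residual replicate 3 lay among the vesicle libraries, and the differences were 1.59 and 1.18 (limma adjusted p = 0.020 and 0.045, but 0.087 and 0.17 without residual replicate 2). In HPDE, where INHBE was under the level tested, it was listed at 2.46 to 2.75 FPKM with PANC-1 and 0.355 to 0.718 FPKM with PPCL-68 vesicles, a gap between sources that GDF15 did not have. Of the 8 ligands tested in HPNE 2 passed with each source (2 higher with PANC-1; 1 higher and 1 lower with PPCL-68, or 1 lower with size factors), and of 6 in HPDE 4 and 5 passed (2 higher and 2 lower, then 2 higher and 3 lower). The shares of all genes called were 24.2%, 39.9%, 63.3% and 67.7%, so the ligand counts were near or below them except for PPCL-68 vesicles in HPDE.

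**Figure D4:**
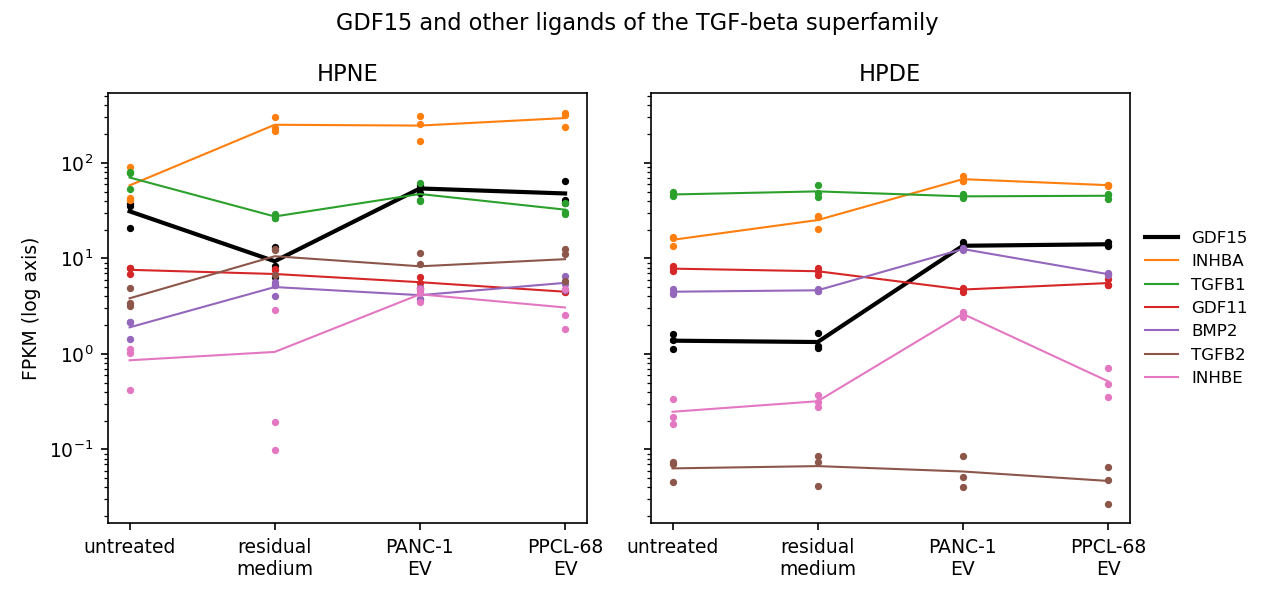
GDF15 (black) and 6 other ligands of the superfamily by group, in FPKM on a log axis; points are libraries and lines join group means of 3 libraries. GDF15 dips to 9.33 FPKM in HPNE in residual medium where INHBA rises, and in HPDE it rises with both vesicle sources to 13.6 and 14.1 FPKM.

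Other secreted stress factors were mostly higher in residual medium than untreated. ADM2, a peptide hormone that ATF4 is known to raise, rose over residual medium by 2.22 and 2.59 in HPNE (2.87 and 3.27 with the 2 closest libraries), and in HPDE by 1.61 and 2.41. Its difference between residual medium and untreated cells was -0.65 in HPNE and -0.11 in HPDE, and neither passed the test (limma adjusted p = 0.13 and 0.32). IL8, the neutrophil chemokine, had in HPNE 2.31 to 4.70 FPKM untreated and 859 to 1818 FPKM in residual medium. With vesicles it had 1109 to 2817 FPKM, and it differed from residual medium by -0.02 (PANC-1) and 0.83 (PPCL-68) on the log2 scale. The PPCL-68 rise passed (limma adjusted p = 0.042, but 0.12 without residual replicate 3). In the group where GDF15 was lowest, IL8 was thus already 8.43 above untreated on the log2 scale. Of 10 such factors tested, 7 were higher in residual medium than untreated in each line and none lower, where 18.7% of all genes were higher in HPNE and 9.93% in HPDE. Against residual medium 3 and 4 of 10 were higher in HPNE and none lower, and in HPDE 8 were higher and 1 lower with PANC-1 and 6 higher and 2 lower with PPCL-68 vesicles. The shares of all genes called were 24.2%, 39.9%, 63.3% and 67.7% (13.9%, 20.3%, 28.2% and 31.3% higher). The HPNE counts, all higher, were near the shares called in either direction and above the shares that were higher, on 10 genes.

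Within 100 kb of GDF15 the tables list 11 genes, of which 5 were tested in both lines and ISYNA1 in HPDE only. PGPEP1, a pyroglutamyl peptidase gene next to GDF15, had 9.51 to 12.1 FPKM in untreated HPNE, 3.51 to 4.40 in residual medium, 7.08 to 8.87 with PANC-1 and 5.59 to 7.79 with PPCL-68 vesicles. It was lower in residual medium by 1.28 on the log2 scale and higher with vesicles than in residual medium by 0.91 and 0.61 (limma adjusted p = 8e-05, 0.0012 and 0.0043), while with PPCL-68 vesicles it was below untreated by 0.67. In HPDE its differences from residual medium were -0.19 and 0.05 and did not pass. SSBP4 fell in HPDE by 0.45 and 0.87, and ELL, an elongation factor gene, rose over residual medium in both lines, by 0.34 and 0.42 in HPNE, and in HPDE by 0.13 and 0.33. LSM4 rose in HPDE with PPCL-68 vesicles by 0.18, JUND did not pass against residual medium in either line, and ISYNA1 fell by 0.35 with PANC-1 vesicles. Without single libraries several of these calls were lost: the limma adjusted p reached 0.15 and 0.18 for ELL with PANC-1 vesicles (without HPNE residual replicate 2 and HPDE residual replicate 3), 0.086 for LSM4 (without PPCL-68 vesicle replicate 2) and 0.13 for ISYNA1 (without residual replicate 1).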

How the data were processed

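Total RNA was sequenced from 24 libraries, 3 in each of 8 groups. The submitters' processing notes name CASAVA, STAR, HTSeq, DESeq2 and build hg19, with no versions or roles, and per the labels' protocols the library kit was non-directional. For each library the authors deposited a table with FPKM and gene length for 48162 genes. FPKM times gene length was a whole multiple of 1 step (within 0.05 of a step) for 100% of values in each library, which gave the reads per gene; intervals on GDF15 are 95% Poisson intervals on those reads.

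Differences are of group means of log2(FPKM + 1). Genes other than GDF15 were tested two-sided with limma 3.58.1 (R 4.3.3; lmFit, eBayes with trend), with treatment group as the only term, 12 libraries and 8 residual degrees of freedom per line, and a mean of at least 1 FPKM. p-values were Benjamini-Hochberg adjusted over all genes tested, with a threshold of 0.05. Differences between lines came from an interaction contrast in 24 libraries. The code was tested on simulated data.

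GDF15 and the gene lists, written from general knowledge, were chosen with earlier results of these data known. Named genes were taken from the regulators, receptor and processing genes, up to 3 called rises and falls with the largest size per other list and vesicle comparison, the 10 most like and 5 most opposite genes, and neighbours within 100 kb. The regulators SP1, TP73 and TFE3 and the receptor genes GFRA2, GFRA3 and GFRA4 are not named in the results. For HIF1A, NFE2L2, NFKB1, RELA, TFEB and CREB1 only differences between the lines are given. Other list members named in the text (VLDLR, NUPR1, TP53INP1 and BTG2) were picked after their values were seen. Alternatives were a pseudocount of 0.1, no filter, size factors, the replicate block, the 6 libraries compared alone, leaving out each library, recovered reads scaled to library total with no length term, voom and Spearman correlation; the 2 closest libraries of each HPNE group were added after the data were seen. Promoters are RefSeq, GRCh38.p14, matched by symbol; deposited coordinates are hg19, and no coordinate was converted. Protein was not analysed here, and 1 regulator is not reported here and was left out of its list.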

Additional observations from a re-analysis of the deposited data

Results flagged for a closer look

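The genes below, regulators of GDF15 and, for vesicles, named genes of the other lists, responded differently in the 2 lines by limma's interaction contrast, adjusted over 10483 genes. Each value is the log2 difference in HPDE minus that in HPNE, so a positive value means a larger rise or a smaller fall in HPDE. GDF15 was not tested in this way, and none of the alternative settings was run on this contrast. Members of the lists that are not named were also called. For residual medium against untreated, 38.1% of all genes were called. The contrast called 6 of 22 ATF4 and CHOP targets, 13 of 22 p53 targets, 5 of 16 regulators, 7 of 10 secreted factors and 3 of 4 ligands. For vesicles against residual medium it called 3 and 4 of 22 ATF4 and CHOP targets, beside 18.2% and 23% of all genes. It also called 7 and 6 of 22 p53 targets and 3 and 7 of 16 regulators there. Of 10 secreted factors it called 4 and 1, and of 4 ligands 3 and 1. The counts of ATF4 and CHOP targets were thus below the shares of all genes, and those of p53 targets above them.

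For PANC-1 vesicles against residual medium, values above 0 were those of EIF2AK3 (0.57), LONP1 (0.42), CDKN1A (0.59), HIF1A (0.77), XBP1 (0.60), STC2 (1.80), VEGFA (0.89), BMP2 (1.49) and INHBA (1.45). Values below 0 were those of BAX (-0.46), FDXR (-0.77), GADD45A (-0.72), TNFRSF10B (-0.62), KLF4 (-1.50), LIF (-1.23) and TGFB1 (-0.89). The adjusted p was lowest for BMP2 (9.4e-06), a bone morphogenetic protein, and highest for GADD45A (0.047).

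For PPCL-68 vesicles against residual medium, values above 0 were those of EIF2AK3 (0.86), CDKN1A (0.48), RELA (0.29), TFEB (0.51), XBP1 (0.43) and INHBA (0.96). Values below 0 were those of HSPA9 (-0.40), BAX (-0.60), BBC3 (-1.03), GADD45A (-1.20), TNFRSF10B (-0.75), ATF3 (-1.13), CREB1 (-0.40), KLF4 (-1.52), NFE2L2 (-0.62) and IL8 (-1.09).

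For residual medium against untreated, the contrast was above 0 for ATF4 (0.57), CEBPB (0.86) and KLF4 (2.40), and below 0 for HIF1A (-0.79) and NFKB1 (-0.58). In HPNE the ATF4 fall of -0.58 (limma adjusted p = 0.039) was lost without any of 7 single libraries. The CEBPB difference there, -0.43, did not pass (limma adjusted p = 0.12). KLF4, whose transcript was lower in residual medium than untreated in HPNE and higher in HPDE, had an adjusted p of 3.5e-05. Its HPDE rise of 0.29 (limma adjusted p = 0.016) did not pass with no filter (0.062), without untreated replicate 1 (0.062) or without residual replicate 1 (0.067).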

How the results depend on the processing

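GDF15 kept its direction under all alternatives in the 10 comparisons of vesicles or residual medium with a control, except that residual medium against untreated in HPDE, near 0, ran from -0.12 to 0.05 as single libraries were left out. Leaving out each library gave 2.25 to 2.72 and 2.02 to 2.51 in HPNE and 2.59 to 2.74 and 2.64 to 2.79 in HPDE for PANC-1 and PPCL-68 vesicles against residual medium. With the 2 closest libraries of each HPNE group, PPCL-68 vesicles against untreated became 0.12 and residual medium against untreated -2.16. In HPDE a pseudocount of 0.1 gave 3.27 and 3.32 against residual medium and 3.22 and 3.28 against untreated, and reads scaled to library total with no length term gave 2.89, 2.94, 2.86 and 2.91, both from changed compression of low values.

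The counts of ATF4 and CHOP targets in HPNE were less stable. PANC-1 vesicles against residual medium called 11 in a fit of the 6 libraries alone and 12 to 21 as single libraries were left out; against untreated, 21 with the 2 closest libraries and 7 to 16 with a library left out; residual medium against untreated called 5 with no filter, 5 in the 6 libraries, 21 with the 2 closest and 4 to 16 with a library left out. Counts of p53 targets for PANC-1 vesicles against residual medium in HPNE were 5 with no filter, 5 in the 6 libraries, 14 with the 2 closest and 5 to 13 with a library left out, and for PPCL-68 vesicles 20 with the 2 closest and 6 to 14. Against untreated they were 19 and 20 with the 2 closest, and in HPDE residual medium against untreated called 5 with no filter. Apart from effects of fewer libraries or of more genes tested, the cause of these moves was not tested. All these counts show only how far the calls moved. With the 2 closest libraries the share of all genes called also rose for vesicles against residual medium. For the other counts of this paragraph no share of all genes is set beside them.

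The replicate numbers were not taken as pairs in the main fit. Same-numbered libraries correlated over 0.1 in 9 of 18 pairs in HPNE and 1 of 18 in HPDE. In HPNE all 3 pairs between the vesicle groups were over 0.1 (0.29 to 0.57), a comparison in which no gene call is reported. Pairs of untreated with vesicle libraries, whose counts are reported, had 0.48 to 0.49 for replicates 1 and 3. For replicate 2 they had -0.44 and -0.37. Pairs of vesicles with residual medium ran from -0.50 to 0.51, and those of untreated with residual medium from -0.51 to -0.39. With the replicate block, ATF4 in HPNE with PANC-1 vesicles against residual medium did not pass (limma adjusted p = 0.071). With the replicate block, ATF4 and CHOP targets against residual medium numbered 18 and 20 in HPNE, with 21 and 22 for HPDE, and p53 targets 6, 11, 12 and 16. Of the GDF15 values 140 stayed within 1 SD and 10 moved. No filter, the replicate block and the 6 libraries alone leave a difference of group means unchanged, so those values could not move. Leaving out 1 of 3 libraries cannot shift that difference by 1 SD of the 2 groups either. Most of the 140 were thus fixed in advance and do not measure stability. Of the ATF4, CHOP and p53 counts 346 stayed within 1.5 times and 24 moved. Of 218 calls among 57 other genes against residual medium, or of residual medium against untreated, 174 held under every alternative run and 44 were lost under at least one, 30 of them in HPNE; none changed direction. Of 107 such HPNE calls, all kept their direction with the 2 closest libraries of each group and 7 moved by over 1.5 times (residual medium against untreated for ATF4, DDIT3, TRIB3, KPNA2 and LMNB1, and PPCL-68 vesicles against residual medium for IL8 and VLDLR). Of the 218 calls in both lines, 43 were lost on leaving out a single library. They included PCSK7 in HPNE (limma adjusted p = 0.12 without PPCL-68 vesicle replicate 1) and EIF2AK3 in HPDE (0.15 without PANC-1 vesicle replicate 1). TRIB3 and SESN2 in HPNE for residual medium were also lost (0.16 and 0.13 without residual replicates 1 and 2). Depth limits GDF15 only in the HPDE controls, at 69 to 118 reads.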

Other observations

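Genes of the mitochondrial unfolded protein response, another program in which GDF15 is known to rise, were mixed. Against residual medium 2 of 7 passed in HPNE with each vesicle source, and 6 and 5 of 7 in HPDE, beside 24.2% and 39.9% of all genes in HPNE, with 63.3% and 67.7% in HPDE. HSPA9, the mitochondrial Hsp70 chaperone and a gene that ATF4 also raises, had 101 to 104 FPKM in HPNE in residual medium, 149 to 186 FPKM with PANC-1 and 203 to 220 FPKM with PPCL-68 vesicles, and it rose in HPDE by 0.56 and 0.64 on the log2 scale. HSPE1, the small partner of the mitochondrial chaperonin, fell in all 4 comparisons, by 0.57 and 0.54 in HPNE, and in HPDE by 0.79 and 0.96. Its HPNE calls were lost without single libraries, with limma adjusted p up to 0.071 and 0.053, both without residual replicate 2. LONP1, a mitochondrial protease, rose in HPDE by 0.34 and 0.33 and had -0.07 and 0.04 in HPNE without passing the test (limma, adjusted over all genes tested).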
